A study of Mus musculus with 8 samples.

Results

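Collagen genes, which encode the chains of the collagen triple helix, were examined by type in mouse dorsal skin after topical Alpinetin. The members are the genes of the deposited table whose symbols read Col, a number, a and a number, with Col17a1, a hemidesmosome component of keratinocytes, left out. They came to 42 of the 18770 genes in the table, and were grouped into 11 fibrillar, 6 basement membrane, 6 microfibrillar, 9 FACIT (fibril-associated collagens with interrupted triple helices) and 10 other genes. The study sequenced mRNA from dorsal skin of 8 wildtype C57BL/6 mice (C57BL/6J in the study's methods) aged 7 to 8 weeks, whose hair had been plucked to start a new hair cycle. The 4 vehicle controls (VC) received 65% ethanol on the skin, and the 4 treated mice (AP) received the plant flavonoid Alpinetin at 3 mg/ml in 20 µl of 65% ethanol, daily from 24 h after depilation. Skin was taken on day 4, and the keratinocytes of the interfollicular epidermis were removed, which leaves dermis with hair follicles. The comparison of AP with VC asks which genes differ in skin treated with the compound early in the hair cycle. Both groups are mixed tissue from separate mice, and the table numbers its columns VC.1 through VC.4 and then AP.1 through AP.4. The numbers of VC.4 and of all AP columns do not occur in the sample titles of their group, so no library was tied to a named sample. Values listed by library follow that order.

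Collagens hold the dermis together and anchor it to the epithelium. Fibrillar collagens, mainly types I, III and V, are made by fibroblasts and build the load-bearing fibrils, while FACIT collagens sit on the surface of those fibrils. Type IV forms the network of basement membranes around hair follicles, vessels, nerves and muscle, type VI forms beaded microfibrils next to them, and type VII ties the epidermal basement membrane to the dermis.

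The libraries differed in depth and in mitochondrial RNA along the same line as the treatment. Reads counted in genes ran from 6454563 to 7264151 in VC and from 8507783 to 11190113 in AP. Mitochondrially encoded genes took 54.3, 44.9, 42.1 and 52.3% of the reads in the 4 VC libraries and 11.1, 7.85, 5.32 and 10.3% in the AP libraries. All 4 VC libraries stood far above all 4 AP libraries, and 10 of the 12 mitochondrially encoded genes tested had lower normalized counts in AP at an adjusted p under 0.05. Without these genes 3080758 to 3762217 reads remained in VC and 7561598 to 10594787 in AP. Neither mitochondrial RNA nor depth can be told apart from the treatment in these 8 libraries, and the part of mitochondrial RNA in the collagen results was not tested. With reads drawn to equal depth, 2 collagen genes were higher and 0 lower in AP at an adjusted p under 0.05. Of all genes 6.14% and 3.70% were, and the collagen median log2 fold change was 0.14. Under total counts without mitochondrial genes the numbers were 2 and 0, against 5.99% and 3.38% of all genes, with a median of 0.20. Collagen genes took 1.98, 1.51, 1.83 and 4.07% of the non-mitochondrial reads in the VC libraries, mean 2.35 ± 1.16% (SD, n = 4). The share was 4.76, 3.93, 2.79 and 1.79% in the AP libraries, mean 3.32 ± 1.30% (SD, n = 4), so the groups overlapped.

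Of the 42 collagen genes 36 reached 3 normalized counts in at least 4 of 8 libraries and were tested. A normalized count here is a gene's reads divided by its library's DESeq2 size factor, and each test is limma on log2(normalized count + 1), adjusted by Benjamini-Hochberg over the 15964 genes tested. The basement membrane chains Col4a5 and Col4a6 rose, which makes 2 of 36 members higher in AP at an adjusted p under 0.05, against 6.33% of all genes tested, and under scaling by total counts the number was 19 of 36, against 54.2% of genes. The number higher was 1 without VC.1, against 3.66% of all genes in that fit, and 1 without VC.4, against 4.54%. It was 0 without AP.2, AP.3 or AP.4, where 2.49, 1.31 and 1.59% of all genes were higher, and 0 with the trend of fold change with transcript length removed, where 3.63% were. No member was lower by limma, against 4.0% of all genes, while Col7a1, the anchoring fibril chain, was the 1 member called lower by DESeq2 (8.53% of all genes), with the length trend removed (3.23%) and without VC.1 (1.63%). Calls in either direction covered 10.3% of all genes. At an unadjusted p under 0.05 there were 6 of 36 members, Col4a5, Col4a6, Col18a1, Col9a2, Col6a5 and Col7a1, against 4840 of 15964 genes (30.3%). By the study's own thresholds, p under 0.01 and a fold change over 1.5, applied to limma, 3 members were higher (Col4a5, Col4a6 and Col18a1), against 8.26% of genes, and 0 lower, against 5.32%. Libraries of the groups did not overlap for 3 members higher in AP, Col4a5, Col4a6 and Col18a1, where 10.3% of all genes behaved so. The opposite separation was seen for 1 member, Col9a2, and for 8.91% of all genes, which makes 19.2% of genes in either direction. These are bulk samples, in which fewer cells of a type and less RNA per cell cannot be told apart.

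Across the 36 members tested the median log2 fold change was 0.16, with 23 above 0 and 13 below, beside 0.06 for all genes tested, of which 53.5% lay above 0. This collagen median ran from 0.005 to 0.40 over the fits that left out a library. It was 0.04 by edgeR and 0.05 by DESeq2, beside -0.01 for all genes by either tool. Class medians were 0.11 for the fibrillar, 0.58 for the basement membrane, 0.32 for the microfibrillar, 0.01 for the FACIT and 0.17 for the other collagens. Leaving out each library in turn moved these medians over -0.04 to 0.59, 0.27 to 0.82, 0.11 to 0.62, -0.09 to 0.27 and -0.47 to 0.42 in that order. With the length trend removed they were -0.29, 0.21, -0.15, -0.23 and -0.13, with -0.14 for all collagen genes, so every class but the basement membrane turned below 0. By edgeR and DESeq2 the medians were -0.36 and -0.34 for the other collagens, -0.03 and -0.02 for the fibrillar and -0.07 and -0.06 for the FACIT class, also below 0, and the FACIT median was -0.04 with upper-quartile factors. Scaling by total counts, where mitochondrial reads count in each library's total, shifts the median of all genes by 0.84. Relative to the median of all genes under that scaling, Col4a5 stood at 1.22, Col4a6 at 1.59, Col18a1 at 1.12 and Col7a1 at -0.88 on the log2 scale. Their values with the deposited scaling, relative to its own median of all genes, were 1.20, 1.59, 1.09 and -0.91. Log2 fold changes also grew with transcript length across genes (Spearman rho 0.24 over 15962 genes, which are not independent replicates), and collagen transcripts are long, with a median of 6083.5 nt for the longest transcript against 3171 nt for all genes tested.

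**Figure D1:**
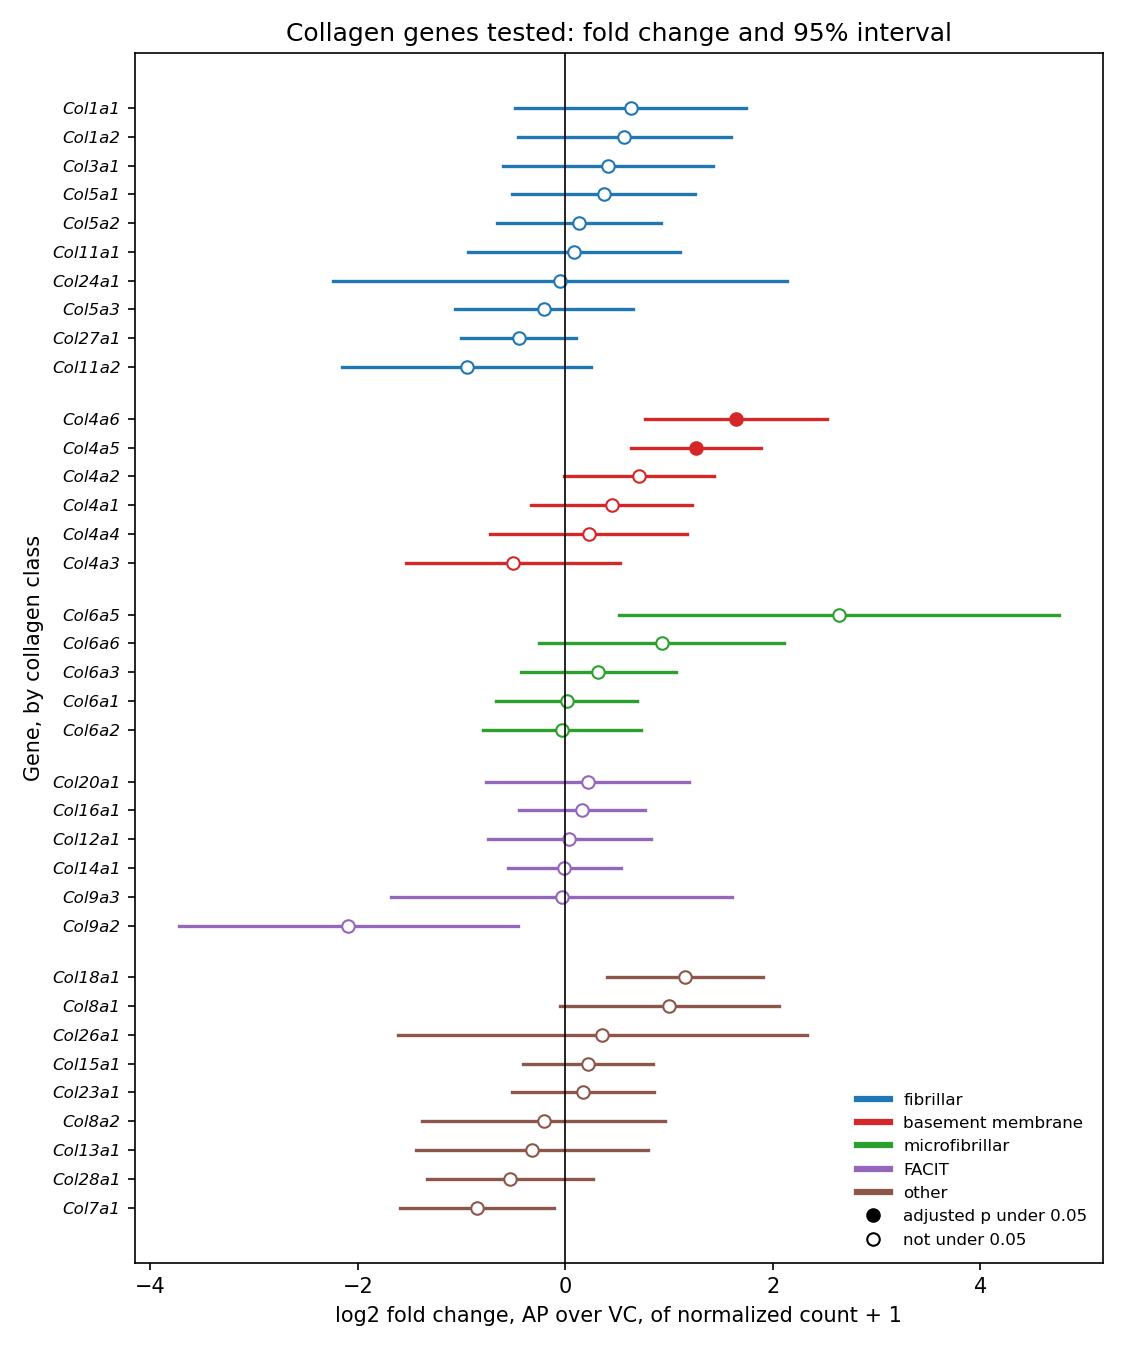
Log2 fold change of AP over VC (x axis) for the 36 collagen genes tested, grouped by class, with 95% confidence intervals from limma. Filled points mark an adjusted p under 0.05, Col4a5 at 1.26 and Col4a6 at 1.64; scaling by total counts brings the number called to 19.

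Fibrillar collagens made up most of the collagen message in every library, and none of their 10 tested genes was called in either direction by limma, with 0 at an unadjusted p under 0.05, against 30.3% of all genes. DESeq2 and edgeR also called 0, where DESeq2 called 10.5% of all genes higher and 8.53% lower, and 5 were higher under total counts, against 54.2%. The type I chain Col1a1, on chr11:94936224-94953042, had 35906.5, 21330.1, 22433 and 67062 normalized counts in VC libraries and 84986, 64584, 43794 and 27508 in the AP libraries. Its partner chain Col1a2, on chr6:4504814-4541544, had 33127, 22152, 23361.5 and 59903 in VC and 79429, 53769.5, 41296 and 28183 in AP. For both chains VC.4 was far above the other controls, AP.1 was highest of all, and AP.2, AP.3 and AP.4 lay within the range of the controls. Col1a1 averaged 36683 ± 21309 in VC and 55218 ± 24981 in AP (SD, n = 4 each; log2 fold change 0.63, SE 0.51, 95% CI -0.48 to 1.74; limma, Benjamini-Hochberg adjusted p = 0.428). The interval for Col1a2 was nearly as wide (log2 fold change 0.57, SE 0.47, 95% CI -0.46 to 1.59; limma, Benjamini-Hochberg adjusted p = 0.439). Col3a1, the chain of the thinner type III fibrils, spanned 23694.5 to 69032.5 normalized counts in VC and 29498 to 65325 in AP (log2 fold change 0.41, SE 0.46, limma adjusted p = 0.580, groups overlapping). Per kilobase of the longest transcript, the mean levels of Col1a2, Col1a1 and Col3a1 were 7975, 7749 and 7623 normalized counts. The next fibrillar chains on that scale, Col5a2 and Col5a1, which set the diameter of type I fibrils, were at 317 and 292, and Col5a3 at 99.4. Types I and III took 75.4% to 88.1% of all collagen reads in the 8 libraries.

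Lower in level were the chains better known from cartilage and bone. On the per-kilobase scale Col11a1 averaged 19.2, Col27a1 14.6, Col11a2 3.04 and Col24a1 1.61 normalized counts. The most negative fibrillar fold change belonged to Col11a2 (log2 fold change -0.95, SE 0.55, limma adjusted p = 0.263), whose groups overlapped. Col27a1 also overlapped between the groups (log2 fold change -0.45, SE 0.25, limma adjusted p = 0.253), and under total counts its log2 fold change was 0.41. Col2a1, the main fibril chain of cartilage, stayed below the count minimum with 8, 1, 4 and 0 reads in the VC libraries and 4, 2, 4 and 2 in the AP libraries, so a difference was not detectable at this depth. A floor of 3 reads corresponds to 4.10 to 5.63 normalized counts in the VC and 1.49 to 2.18 in the AP libraries, counting error only. The cartilage marker list had 3 of 6 genes tested and 0 called, with 0 at an unadjusted p under 0.05, against 30.3% of all genes, and sums of 25.5 to 90.1 normalized counts per library, Acan being the most abundant. Matn1 and Matn3 were not analysed here.

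Within each group, fibroblast markers were highest in the same library as type I collagen. The 9 genes of the list, with Dpt the most abundant, summed to 14779.9, 11631.5, 11163 and 20286 normalized counts in VC libraries and 17657, 9919, 8465 and 8851 in the AP libraries. VC.4 held the highest sum of the controls and AP.1 the highest of the treated libraries, as for Col1a1 and Col1a2. None of the 9 was called by limma (5 at an unadjusted p under 0.05, against 30.3% of all genes), edgeR called 1 lower (Twist2; 4.46% of all genes) and DESeq2 3 (Twist2, Dpt and Fap; 8.53%), the median log2 fold change was -0.11, and none was at 0. Lum and Dpt stand both here and among the fibril-associated proteins, and Fap both here and among the collagen-degrading enzymes. The part of fibroblast content in the collagen levels was not tested. All 10 tested fibrillar genes were lowest in AP.4 among the treated libraries, and 7 of 10 were highest in VC.4 among the controls.

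**Figure D2:**
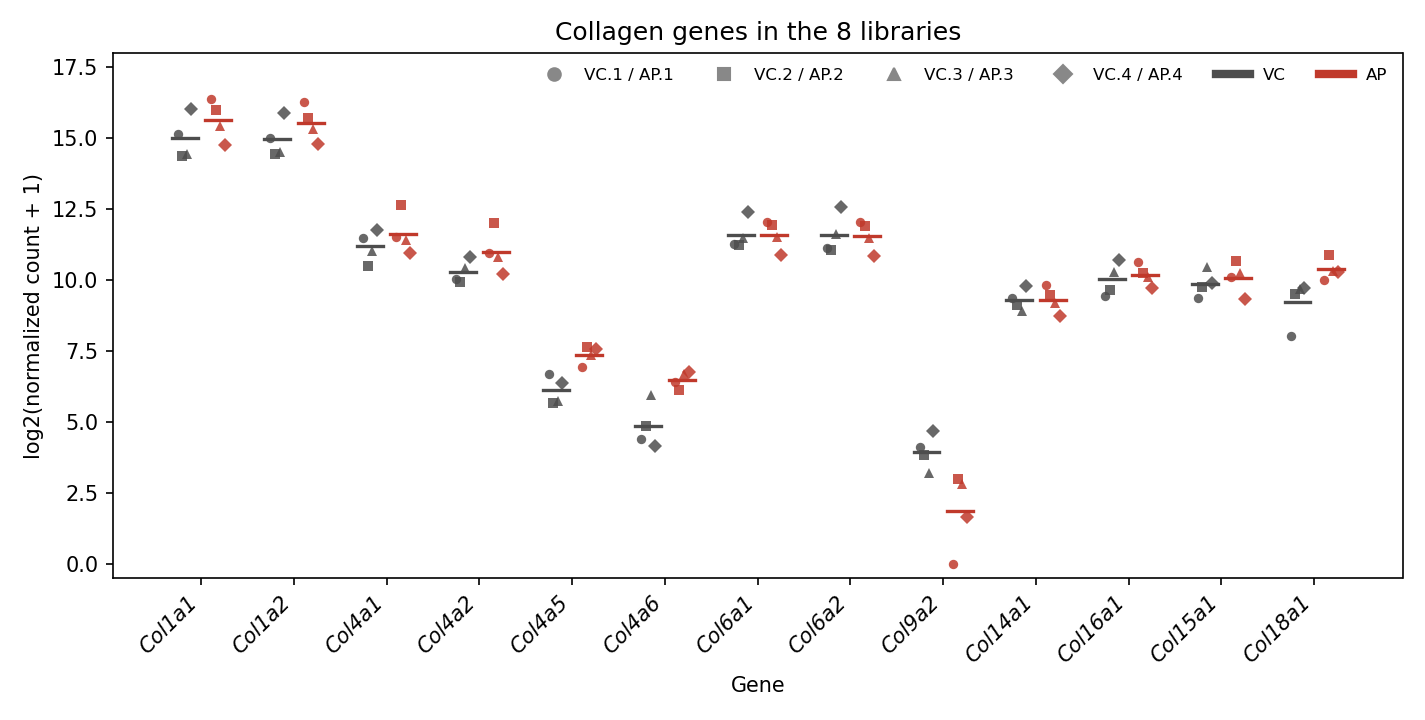
Normalized counts of 13 collagen genes on a log2(normalized count + 1) axis, with a point for every library and a bar at each group's mean. Symbols shared by VC and AP libraries of the same number do not pair them; the AP libraries of Col4a5, Col4a6 and Col18a1 all lie above their VC libraries.

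Basement membrane collagens gave both calls. Col4a5 (ENSMUSG00000031274, chrX:141475385-141689234, plus strand), a chain of the networks in epithelial and smooth muscle basement membranes, had 102, 50.2, 51.9 and 82.5 normalized counts in VC libraries and 121, 201, 162 and 188 in the AP libraries. All 4 AP libraries exceeded all 4 VC libraries, with VC.1 the highest control and AP.1 the lowest treated library. The means were 71.6 ± 25.0 and 168 ± 35.1 (SD, n = 4 each), from 34 to 56 reads in VC and 167 to 372 in AP. Col4a5 rose 2.39-fold (log2 fold change 1.26, SE 0.29, 95% CI 0.63 to 1.88; limma, Benjamini-Hochberg adjusted p = 0.0241).

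Col4a6 (ENSMUSG00000031273, chrX:141165403-141474076, minus strand), which assembles with Col4a5, had 20.01, 28.1, 61.4 and 16.9 normalized counts in VC libraries and 83.4, 68.5, 102 and 107 in the AP libraries. VC.3 was the highest control by far and came close to AP.2, the lowest treated library, yet the groups did not overlap. Means were 31.6 ± 20.4 in VC and 90.1 ± 17.6 in AP (SD, n = 4 each), from 9 to 45 reads in VC and 115 to 205 in AP. Col4a6 rose 3.13-fold (log2 fold change 1.64, SE 0.40, 95% CI 0.77 to 2.52; limma, Benjamini-Hochberg adjusted p = 0.0298). Both calls ended when the trend with transcript length was removed: Col4a5 then stood at 0.89 with a limma adjusted p of 0.0957 (range over 22 alternatives 0.000466 to 0.0957). Col4a6 stood at 1.27 with a limma adjusted p of 0.0659 (range over 22 alternatives 0.00177 to 0.0977). Without AP.2, AP.3 or AP.4 the adjusted p for Col4a5 by limma was 0.0715, 0.0764 and 0.0758, at log2 fold changes of 1.16, 1.27 and 1.19. For Col4a6 limma gave adjusted p values of 0.0593 without VC.1, 0.0543 without VC.4, and 0.0592, 0.0977 and 0.0891 without AP.2, AP.3 or AP.4.

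The ubiquitous type IV chains, which form the network of vessel and most other basement membranes, did not pass. Col4a1 had 2856, 1438, 2062 and 3459 normalized counts in VC libraries and 2958, 6373, 2743 and 1958 in the AP libraries. Col4a2 had 1039, 972, 1385 and 1787 in the VC libraries and 1989, 4111, 1811 and 1199 in the AP libraries. AP.2 was far above every other library for both chains, VC.4 was the highest control, and the groups overlapped. The fold changes were within the spread of the libraries for Col4a1 (log2 fold change 0.45, SE 0.35, 95% CI -0.33 to 1.22; limma, Benjamini-Hochberg adjusted p = 0.422) and for Col4a2 (log2 fold change 0.71, SE 0.33, 95% CI -0.01 to 1.43; limma, Benjamini-Hochberg adjusted p = 0.172). Per kilobase these were the most abundant type IV chains, at 451 and 277 normalized counts, against 18.3 for Col4a5 and 9.16 for Col4a6. Col4a4 and Col4a3, chains of specialised basement membranes such as the glomerular filter, averaged 5.35 and 3.24 on that scale. Their groups overlapped, with a log2 fold change of 0.22 for Col4a4 (SE 0.43, limma adjusted p = 0.760) and -0.50 for Col4a3 (SE 0.47, limma adjusted p = 0.4997). Under total counts Col4a3 stood at 0.33, and with the length trend removed Col4a4 stood at -0.28. The median of the class, 0.58, was 0.27 without AP.2 and 0.21 with the length trend removed.

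Some markers of epithelial and vessel cells, which lie on basement membranes, were also higher in AP by limma, and muscle markers went both ways. Of all genes limma called 6.33% higher, edgeR 6.28%, DESeq2 10.5% and voom 4.48%. All 5 suprabasal keratinocyte markers, Krt10 the most abundant, were higher in AP and summed to 2878, 8608, 5329 and 3585 normalized counts in VC libraries and 30816, 32818, 85564 and 132825 in the AP libraries. The treated libraries all exceeded the controls, although interfollicular keratinocytes were stated to have been removed. Of 5 basal keratinocyte markers 2, the hemidesmosome integrins Itga6 and Itgb4, were called higher by limma, 1 by edgeR (Itga6), and the list, led by Krt14, summed to 23122, 75599.6, 44511 and 21261 in VC and 45615, 49524, 87834 and 131566 in AP, overlapping through VC.2. Endothelial markers were called higher in 3 of 7 by limma and edgeR (Pecam1, Cdh5 and Flt1) and in 5 of 7 by DESeq2, and their sums, Pecam1 the most abundant, were 904, 870.4, 1419 and 1671 in VC and 2651, 5979, 2183 and 2425 in AP. AP.2 was again the highest library, as for Col4a1, Col4a2, Col15a1 and Col18a1. Pericyte markers were higher in 2 of 5 by limma and DESeq2 (Kcnj8 and Notch3) and in 1 by edgeR and voom (Notch3), with Rgs5 the most abundant and sums of 909.5, 961, 1264 and 1262 in VC and 2105, 3301, 1847 and 1542 in AP. Of 5 smooth muscle markers 3 (Acta2, Myh11 and Actg2) were higher, and the list, led by Des, summed to 3474, 5796, 3651 and 4131 in VC and 6992, 4849, 2018 and 3236 in AP, with overlap. The AP libraries of Acta2, Myh11 and Actg2 all lay above the controls, while Cnn1 and Des overlapped between the groups. Des itself averaged 3515 ± 1151 in VC and 1881 ± 1936 in AP (SD, n = 4 each), lower in mean in AP without passing. It had 2898, 5217, 2738 and 3206 in VC and 4765, 1058, 596 and 1105 in AP. VC.2 and AP.1 were its highest libraries within their groups, as for the skeletal muscle sums given below. Whether skeletal muscle content bears on Des was not tested. No marker of these lists was at 0 in all libraries. Their part in the type IV results was not tested.

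Microfibrillar collagens, the type VI chains, showed no call in the 5 of 6 genes tested, by limma, edgeR or DESeq2, while 1 had an unadjusted p under 0.05, against 30.3% of all genes, and 4 were higher under total counts, against 54.2%. Col6a1 (chr10:76708792-76726168) had 2463, 2393, 2825 and 5415 normalized counts in VC libraries and 4258, 3964, 2946 and 1878 in the AP libraries. Col6a2 (chr10:76595762-76623630), which joins Col6a1 in the type VI monomer, had 2239, 2116, 3161 and 6049 in VC and 4246.5, 3809, 2823 and 1822 in AP. VC.4 was the highest library for both genes and AP.4 the lowest, so the spread within each group exceeded the difference between them. The log2 fold changes were close to 0 for Col6a1 (log2 fold change 0.01, SE 0.31, 95% CI -0.67 to 0.69; limma, Benjamini-Hochberg adjusted p = 0.983) and for Col6a2 (log2 fold change -0.03, SE 0.35, 95% CI -0.79 to 0.73; limma, Benjamini-Hochberg adjusted p = 0.963). Their signs turned under other settings: with the length trend removed Col6a1 stood at -0.15, and under total counts Col6a2 stood at 0.84. Per kilobase the levels were 797 for Col6a1, 668 for Col6a2 and 273 normalized counts for Col6a3, the large chain of the classic trimer. Col6a3 overlapped between the groups (log2 fold change 0.32, SE 0.34, limma adjusted p = 0.559). The alternatives to that chain, Col6a4, Col6a5 and Col6a6, were rare, at 0.459, 2.61 and 7.01 normalized counts per kilobase.

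Col6a5, chosen after its values were seen, had 0, 1, 18 and 4 reads in the VC libraries and 19, 191, 38 and 35 in the AP libraries. AP.2 carried most of the reads, VC.3 reached the level of the lower AP libraries, and VC.1 and VC.2 lay under the 3-read floor. Its log2 fold change rests on those few reads and did not pass (log2 fold change 2.63, SE 0.97, 95% CI 0.51 to 4.75; limma, Benjamini-Hochberg adjusted p = 0.0963), while limma gave an adjusted p of 0.0411 without VC.3 (range over 22 alternatives 0.0126 to 0.249). Col6a6 overlapped (log2 fold change 0.93, SE 0.54, limma adjusted p = 0.267). Col6a4 was below the count minimum with 6, 0, 0 and 1 reads in VC and 4, 10, 2 and 7 in AP.

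FACIT collagens showed no difference that passed in 6 of 9 genes tested, by limma, edgeR or DESeq2, with 1 at an unadjusted p under 0.05, against 30.3% of all genes, and 2 higher under total counts, against 54.2%. Col16a1, a minor collagen of the zone near the basement membrane, had 699, 805, 1248 and 1661 normalized counts in VC libraries and 1589.8, 1223, 1102 and 848 in the AP libraries. Col14a1, a regulator of fibril growth in the dermis, had 660.3, 562, 485 and 894 in VC and 898, 703, 584 and 422 in AP. The highest control of both genes was VC.4, the highest treated library AP.1 and the lowest treated library AP.4, and the groups overlapped. The intervals spanned 0 for Col16a1 (log2 fold change 0.16, SE 0.28, 95% CI -0.45 to 0.77; limma, Benjamini-Hochberg adjusted p = 0.731) and for Col14a1 (log2 fold change -0.01, SE 0.25, 95% CI -0.55 to 0.53; limma, Benjamini-Hochberg adjusted p = 0.980). Under total counts Col14a1 stood at 0.86, and with the length trend removed Col16a1 stood at -0.08. Per kilobase Col16a1 averaged 220.3, Col14a1 101, Col12a1, another fibril-surface collagen, 42.9 and Col20a1 6.69 normalized counts.

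Col9a2 (ENSMUSG00000028626, chr4:121039385-121055322, plus strand), a type IX chain of cartilage fibrils, had 16.4, 13.3, 8.19 and 24.4 normalized counts in VC libraries and 0, 7.01, 5.98 and 2.15 in the AP libraries. All 4 AP values lay below all 4 VC values on this scale, VC.3 being the lowest control and AP.2 the highest treated library. The reads behind them, 9, 9, 6 and 13 in VC and 0, 13, 12 and 3 in AP, overlap, and AP.1 and AP.4 were at or under the 3-read floor. The difference did not pass (log2 fold change -2.09, SE 0.75, 95% CI -3.72 to -0.46; limma, Benjamini-Hochberg adjusted p = 0.0881; under 0.05 in 0 of the 21 alternatives that gave a value, range 0.0584 to 0.178). Col9a3 averaged 3.70 normalized counts per kilobase, with overlap. The other 3 FACIT genes were below the count minimum. Col9a1 had at most 2 reads in any library, Col19a1 had 0, 2, 3 and 1 reads in VC and 0, 0, 2 and 0 in AP, and Col22a1 had 0, 0, 7 and 2 in VC and 9, 4, 6 and 1 in AP. No difference was detectable for them at this depth.

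The other collagens include the multiplexins Col15a1 and Col18a1, proteoglycans of the basement membrane zone whose ends release small fragments, endostatin in the case of Col18a1. Col18a1 (ENSMUSG00000001435, chr10:77052178-77166548, minus strand) had 260.1, 724, 815 and 834 normalized counts in VC libraries and 1031, 1901, 1283 and 1245 in the AP libraries. VC.1 was far below the other controls, which lay close together, and all 4 AP libraries were above all 4 VC libraries, AP.2 the highest. The means were 658 ± 269.9 and 1365 ± 374 (SD, n = 4 each), and the difference missed the threshold (log2 fold change 1.15, SE 0.34, 95% CI 0.40 to 1.90; limma, Benjamini-Hochberg adjusted p = 0.0532). Without VC.1 the log2 fold change was 0.75, and 4 of 22 alternatives gave an adjusted p under 0.05 (range 0.00228 to 0.135), among them DESeq2 and total counts. Col15a1 had 653, 856, 1420.1 and 962 normalized counts in VC libraries and 1107, 1619, 1200.3 and 650.2 in the AP libraries. VC.3 and AP.2 were its highest libraries and VC.1 and AP.4 its lowest, with full overlap (log2 fold change 0.22, SE 0.29, 95% CI -0.41 to 0.85; limma, Benjamini-Hochberg adjusted p = 0.641). With the length trend removed Col15a1 stood at -0.02. Per kilobase Col15a1 averaged 205 and Col18a1 181 normalized counts.

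Col7a1, the chain of the anchoring fibrils beneath the epidermis and chosen after its values were seen, had 631, 962, 1339.5 and 2503 normalized counts in VC libraries and 625, 544, 832 and 679 in the AP libraries. The controls VC.2 to VC.4 lay above all AP libraries, VC.4 most, while VC.1 lay among the AP libraries. By limma the difference did not pass (log2 fold change -0.85, SE 0.34, 95% CI -1.59 to -0.11; limma, Benjamini-Hochberg adjusted p = 0.120). DESeq2 gave an adjusted p of 0.0355, limma without VC.1 gave an adjusted p of 0.04998 (range over 22 alternatives 0.0355 to 0.967), and without VC.4 the log2 fold change was -0.50. Under total counts the log2 fold change was 0.02. Col8a1, a short-chain collagen of vessel walls, overlapped between the groups (log2 fold change 1.001, SE 0.48, limma adjusted p = 0.185). Among the transmembrane collagens Col23a1 averaged 49.2 and Col13a1 7.40 normalized counts per kilobase, and Col25a1 was below the minimum with 0, 1, 7 and 3 reads in VC and 3, 3, 13 and 0 in AP. Col28a1, Col8a2 and Col26a1 averaged 15.1, 3.90 and 3.45 on the per-kilobase scale, and all overlapped. In this class VC.1 was the lowest control for 7 of 9 tested genes.

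The make-up of the collagen message was compared as each class's share of all collagen normalized counts per kilobase of transcript, a measure that does not depend on scaling between libraries. Fibrillar genes took 85.2 ± 3.80% in VC and 88.0 ± 2.09% in AP (SD, n = 4 each). The microfibrillar share was 5.72, 8.08, 9.65 and 7.24% in the VC libraries and 4.96, 5.83, 6.06 and 5.61% in the AP libraries. VC.3 held the highest type VI share and AP.1 the lowest, and VC.1 fell inside the AP range. The mean microfibrillar shares were 7.67 ± 1.64% and 5.61 ± 0.473% (SD, n = 4 each). Basement membrane genes took 2.73 ± 0.587% in VC and 3.01 ± 1.12% in AP, with AP.2 the highest library and AP.1 the lowest. FACIT genes took 1.72 ± 0.475% and 1.26 ± 0.211%, and the other collagens 2.68 ± 1.41% and 2.16 ± 0.695%. No class share was given a test. Library order recurred across members: among the controls 21 of 36 genes were highest in VC.4, and among the treated libraries 22 of 36 were lowest in AP.4.

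**Figure D3:**
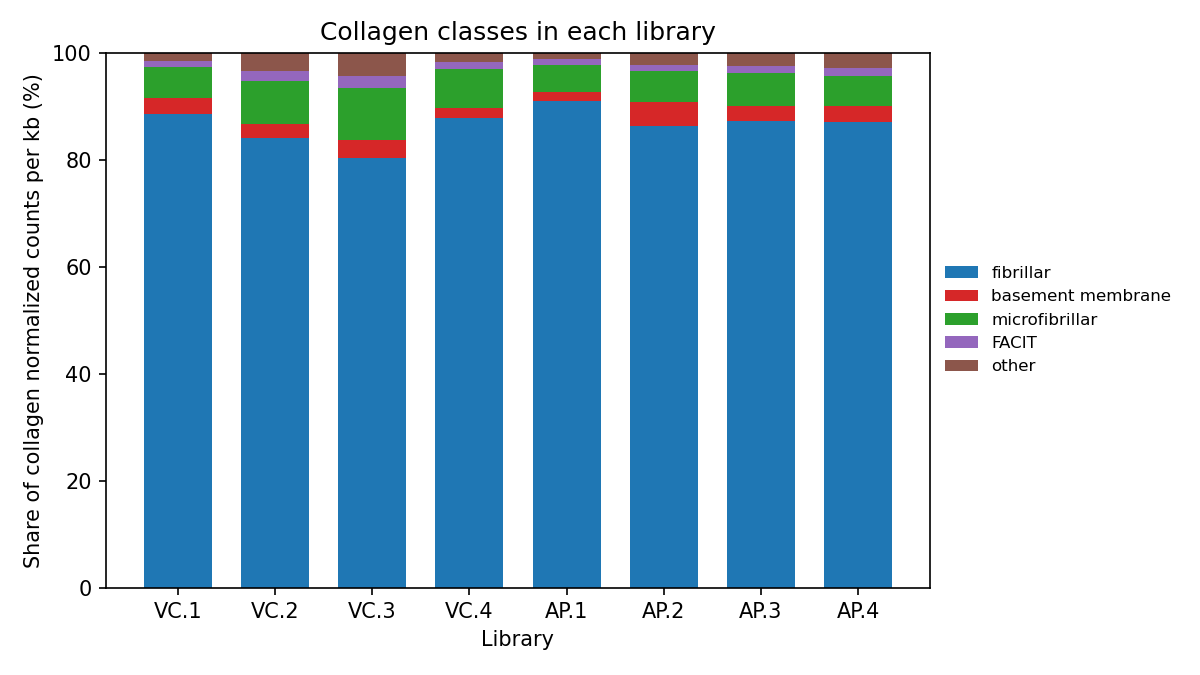
Share of each collagen class in all collagen normalized counts per kilobase (y axis, percent), stacked for each of the 8 libraries. Fibrillar genes take 80.3% to 91.1% of every bar.

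Ratios of chains were compared within libraries over 8 pairs, 7 of chains that share a trimer or, for types III and I, a fibril, and 1 of a type IV to a type I chain, by a 2-sided exact permutation test over the 70 assignments of 4 against 4, whose smallest p is 0.0286. With 8 ratios, 1 ratio at that smallest p has an adjusted p of 0.229, and 5 ratios would have to reach it for any to pass. The pair of type I chains, which assemble in a fixed proportion, had a log2 ratio of Col1a1 to Col1a2 of 0.12, -0.05, -0.06 and 0.16 in the VC libraries and 0.10, 0.26, 0.08 and -0.03 in the AP libraries. The ratio stayed within -0.06 to 0.26 in all 8 libraries and the groups overlapped (difference 0.06, exact permutation p = 0.543, adjusted 0.629). Col6a3 against Col6a1 gave -0.74, -0.43, -0.19 and -0.33 in VC and -0.21, -0.01, -0.12 and -0.13 in AP. Only VC.3 among the controls reached the AP range (difference 0.31, exact permutation p = 0.0571, adjusted 0.343). Col3a1 against Col1a1 gave -0.14, 0.15, 0.15 and 0.04 in VC and -0.38, -0.20, -0.20 and 0.10 in AP. AP.4 lay among the controls and the other AP libraries below them (difference -0.22, exact permutation p = 0.0857, adjusted 0.343). The remaining differences were 0.23 for Col5a1 to Col5a2 (exact permutation p = 0.171, adjusted 0.457) and -0.26 for Col4a1 to Col4a2 (exact permutation p = 0.400, adjusted 0.629). Col4a5 to Col4a6 differed by -0.39 (exact permutation p = 0.629, adjusted 0.629), with the VC libraries running from -0.24 to 2.29 and the AP libraries from 0.53 to 1.54. Col6a1 to Col6a2 differed by 0.04 (exact permutation p = 0.600, adjusted 0.629) and Col4a1 to Col1a1 by -0.18 (exact permutation p = 0.629, adjusted 0.629). All 8 overlapped between the groups.

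Genes that modify, fold, process, link, bind and degrade collagen were taken from 8 lists of 83 genes, of which 80 were tested, with 7 higher and 1 lower in AP, against 6.33% and 4.0% of all genes, and a median log2 fold change of 0.15. That median was 0.01 with the length trend removed and ran from 0.05 to 0.29 over the fits that left out a library. Under total counts 56 were higher and 0 lower, against 54.2% and 0.438% of all genes. The number higher was 2 without VC.1, AP.3 or AP.4 (3.66, 1.31 and 1.59% of all genes), 2 with the length trend removed (3.63%) and 3 without AP.2 (2.49%). The number lower was 4 without AP.1 (5.12% of all genes), and DESeq2 called 11 higher and 4 lower (10.5% and 8.53%). Enzymes that hydroxylate and glycosylate prolines and lysines gave 1 call higher in 15, P3h2, the prolyl 3-hydroxylase of basement membrane collagen, with a list median of -0.03. P3h2 had 74.6, 126, 94.2 and 63.8 normalized counts in VC libraries and 152, 162, 239 and 248 in the AP libraries, and its AP libraries were all above the controls (log2 fold change 1.17, SE 0.27, limma adjusted p = 0.0248). The prolyl 4-hydroxylase subunits overlapped between groups, P4ha1 at 0.50 (SE 0.30, limma adjusted p = 0.293) and P4ha2 at -0.47 (SE 0.35, limma adjusted p = 0.383), the latter 0.40 under total counts. Plod2, the lysyl hydroxylase of telopeptides, overlapped as well (log2 fold change -0.95, SE 0.39, limma adjusted p = 0.127). Folding and secretion had no call in 11 by limma, edgeR or DESeq2, with 2 at an unadjusted p under 0.05, against 30.3% of all genes, 7 higher under total counts, against 54.2%, and a median of 0.01. Serpinh1, the collagen chaperone HSP47, overlapped (log2 fold change -0.35, SE 0.31, limma adjusted p = 0.479) and stood at 0.52 under total counts.

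Propeptide processing gave 1 call higher in 7 tested, against 6.33% of all genes, with a median of 0.54, or 0.13 with the length trend removed. Tll1, a tolloid-like proteinase, had 5.46, 20.7, 16.4 and 1.88 normalized counts in VC libraries and 51.5, 104, 47.8 and 39.3 in the AP libraries. Every AP library exceeded every control for Tll1, at low levels (log2 fold change 2.65, SE 0.64, limma adjusted p = 0.0282). Its main relative Bmp1, the C-propeptidase, did not differ beyond the spread (log2 fold change -0.08, SE 0.25, limma adjusted p = 0.862) and stood at 0.79 under total counts, and Adamts2, the N-propeptidase, overlapped (log2 fold change 0.54, SE 0.31, limma adjusted p = 0.263). Of 5 lysyl oxidases, which cross-link fibrils, 0 were called by limma, edgeR or DESeq2, with 0 at an unadjusted p under 0.05, against 30.3% of all genes, 4 higher under total counts, against 54.2%, and a median of 0.09. Lox overlapped (log2 fold change 0.09, SE 0.33, limma adjusted p = 0.875), and so did Loxl2 (log2 fold change -0.05, SE 0.32, limma adjusted p = 0.927). With the length trend removed Lox stood at -0.11, and under total counts Loxl2 stood at 0.82.

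Proteins that coat or space fibrils gave 1 call higher in 11 by limma, Tnxb, tenascin X (2 higher and 1 lower by DESeq2), against 6.33% of all genes higher by limma and, by DESeq2, 10.5% higher and 8.53% lower, with a list median of -0.10. Tnxb had 744, 669, 845 and 1106 normalized counts in VC libraries and 3911, 2490.5, 1557 and 1533 in the AP libraries, every AP library above every control and AP.1 the highest (log2 fold change 1.41, SE 0.29, limma adjusted p = 0.0172). That call ended with the length trend removed, at 0.86 and a limma adjusted p of 0.112 (range over 22 alternatives 0.000152 to 0.112). The proteoglycans decorin (Dcn, log2 fold change 0.15, SE 0.31, limma adjusted p = 0.784) and lumican (Lum, log2 fold change -0.03, SE 0.32, limma adjusted p = 0.963) overlapped between groups. Sparc, a collagen-binding glycoprotein, overlapped too (log2 fold change -0.11, SE 0.41, limma adjusted p = 0.879). The signs of these 3 turned under other settings: under total counts Lum stood at 0.84 and Sparc at 0.76, and with the length trend removed Dcn stood at -0.05.

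Collagen receptors gave 1 call in each direction among 9 tested by limma, with a median of -0.10. DESeq2 gave 2 in each direction, adding Ddr1 higher and Lair1 lower. Limma called 6.33% of all genes higher and 4.0% lower, and DESeq2 10.5% and 8.53%. By limma Lair1 did not pass, and its groups overlapped (log2 fold change -1.63, SE 0.63, limma adjusted p = 0.111). Ddr2, the discoidin receptor of fibroblasts for fibrillar collagen, had 1342, 1355, 1157 and 1359 normalized counts in VC libraries and 855, 775, 657 and 620.1 in the AP libraries. It fell, with all AP libraries below all controls (log2 fold change -0.85, SE 0.15, limma adjusted p = 0.0108), and stood at 0.02 under total counts, limma adjusted p = 0.927 (range over 22 alternatives 1.63e-05 to 0.927). Itgb1, the shared beta chain of the collagen-binding integrins, had 1082, 1229.5, 1229 and 1800.0 in VC and 1992, 2579, 1942 and 1898 in AP. All AP libraries were above all controls for Itgb1 (log2 fold change 0.67, SE 0.19, limma adjusted p = 0.0433), but its adjusted p was under 0.05 in 12 of 22 alternatives (range 0.000569 to 0.116) and, among fits that left out a library, without VC.4 and no other, and the call also ended with upper-quartile factors, by edgeR and with the length trend removed. The epithelial receptor Ddr1 did not pass though its AP libraries were all above the controls (log2 fold change 0.995, SE 0.30, limma adjusted p = 0.0576), and 6 of 22 alternatives gave an adjusted p under 0.05 (range 0.00231 to 0.158), among them DESeq2 and the fits without VC.2, VC.3 or AP.1. The alpha chain Itga1 was likewise separate (log2 fold change 0.83, SE 0.33, limma adjusted p = 0.121), while Itga2 (log2 fold change 1.23, SE 0.47, limma adjusted p = 0.105) and Itga11 (log2 fold change -0.10, SE 0.49, limma adjusted p = 0.905) overlapped. Under total counts Itga11 stood at 0.75. Without VC.3 the median of the list was 0.55. Collagen-degrading enzymes had no call in 7 tested by limma or edgeR, with 3 at an unadjusted p under 0.05, against 30.3% of all genes, and a median of 0.38. DESeq2 called Mmp9, a gelatinase, higher and Fap, a serine proteinase of fibroblasts, lower; its median for the list was 0.069.

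Partners of type IV collagen in the basement membrane, here laminins, nidogens, heparan sulfate proteoglycans, the cross-linking peroxidase Pxdn and Sparc, which is also among the fibril-associated proteins, gave 3 calls higher in 16 by limma (4 by DESeq2), against 6.33% of all genes (DESeq2 10.5%), with 15 of 16 log2 fold changes above 0, all but that of Sparc, and a median of 0.55. The median was 0.13 with the length trend removed. Lamc1, the gamma chain of most laminins, had 591, 699, 680.0 and 939 normalized counts in VC libraries and 1858, 2368, 1276 and 1145 in the AP libraries. AP.2 was highest, and every AP library exceeded every control (log2 fold change 1.15, SE 0.24, limma adjusted p = 0.0175), though with the length trend removed it stood at 0.74, limma adjusted p = 0.0839 (range over 22 alternatives 0.000349 to 0.0839). Lama3, the alpha chain of epithelial laminin, had 61.8, 248, 162 and 65.6 in VC and 257, 317, 749 and 525 in AP. The AP libraries were again above all controls, AP.3 and AP.4 most, as for the suprabasal keratinocyte markers (log2 fold change 1.89, SE 0.46, limma adjusted p = 0.0294). For Lama3 the adjusted p was under 0.05 in 16 of 22 alternatives, which include edgeR and DESeq2 (range 0.00190 to 0.0925). Its limma call ended with the length trend removed. Leaving out VC.1, AP.3 or AP.4 ended the calls of Lama3 and P3h2. Tll1 lost its call without VC.1, AP.2, AP.3 or AP.4, and Lama3 also without VC.4 or AP.2. Over the fits without a library the highest adjusted p by limma was 0.0901 for P3h2, 0.0859 for Tll1 and 0.0925 for Lama3, with all log2 fold changes above 0.

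Cell type lists that the skin could hold were read beside these results. Dermal papilla markers were lower in 3 of 6 by limma, edgeR and DESeq2 (Rspo3, Sox2 and Wif1), where limma called 4.0% of all genes lower, edgeR 4.46% and DESeq2 8.53%, and in 0 under total counts (0.438%), with Wif1 the most abundant and sums of 766, 1109.8, 1697 and 889 normalized counts in VC libraries and 374, 447, 807 and 373 in the AP libraries. Skeletal muscle markers gave 0 calls in 7 by limma (5 at an unadjusted p under 0.05, against 30.3% of all genes, all 7 log2 fold changes below 0), Acta1 leading, and their sums of 41093, 61556, 31618 and 32490.3 in VC and 56097, 7927, 4736 and 10392 in AP placed AP.1 among the controls. Adipocyte markers gave 0 calls in 5 by limma (1 at an unadjusted p under 0.05), with sums of 19220.2, 5305, 6885 and 10114 in VC and 10841, 16613, 8352 and 6561 in AP, Fabp4 leading. Macrophage markers gave 0 calls in 5 by limma (3 at an unadjusted p under 0.05; 1 lower by DESeq2, Adgre1), with sums of 3867, 2269.9, 2219 and 5768 in VC and 3067, 2457, 1803 and 1661 in AP, Mrc1 leading. No gene of these lists was at 0 in all libraries. Whether differences in cell content bear on the collagen genes was not tested.

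Position in the genome ties several members together. The type IV genes lie as head-to-head pairs whose annotated starts are 21 bp apart for Col4a1 and Col4a2 on chromosome 8, 72 bp for Col4a3 and Col4a4 on chromosome 1, and 1309 bp for Col4a5 and Col4a6 on chromosome X. Both calls thus fell on a single pair. Exons of other genes overlapped at most 6.07% of a member's exon length, for Col9a3. Promoter windows of 250 bases before the start matched 33 of the 42 members in RefSeq (GRCm38.p6, the mm10 build). On both strands, 3 of the 33 held the TATA box letters TATAAA, found in 12.4% of 32851 windows, and 11 held CCAAT, found in 33.9%. The letters GGGCGG were in 21 of 33 members and in 32.7% of windows, and TGANTCA was in 1, Col6a1, and in 6.75% of windows. A match describes letters and not a bound site. The sequences before the starts of Col4a5 and Col4a6 are shown because these neighbours carry both calls, and they come from RefSeq GRCm38.p6. The Col4a5 stretch, chrX:141475169-141475384 on the plus strand, has 216 bases with CCAAT in capitals. It stops where annotated exon begins, so 34 exonic bases of its 250-base window are not printed. That whole window also holds 1 GGGCGG match, which does not lie wholly within the printed bases, so the windows of both neighbours have these letters. The Col4a6 stretch, chrX:141474077-141474326 on the minus strand, has 250 bases and a GGGCGG match on the opposite strand, in capitals as CCGCCC.
Col4a5: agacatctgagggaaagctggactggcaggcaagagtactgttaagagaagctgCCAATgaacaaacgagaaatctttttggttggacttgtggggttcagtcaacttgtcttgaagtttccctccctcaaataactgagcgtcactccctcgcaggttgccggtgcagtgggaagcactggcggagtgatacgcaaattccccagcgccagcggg
Col4a6: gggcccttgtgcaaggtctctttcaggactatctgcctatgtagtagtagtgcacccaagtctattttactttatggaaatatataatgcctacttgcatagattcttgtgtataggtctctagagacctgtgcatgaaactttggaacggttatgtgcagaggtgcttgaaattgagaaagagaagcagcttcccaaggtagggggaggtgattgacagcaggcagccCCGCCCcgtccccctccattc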

How the data were processed

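The authors aligned reads to mm10 with STAR, counted them in genes and deposited normalized counts. The series' processing notes name HTSeq for the counting and the paper's methods name featureCounts, without versions. The deposited values are signal, normalized counts from DESeq2, and all 150160 values became whole reads within a tolerance of 0.001 when divided by each library's value for 1 read. Genes that reached 3 normalized counts in 4 or more of the 8 libraries were fitted on log2(normalized count + 1) with limma 3.58.1 (empirical Bayes with an intensity trend, group as the only term) in R 4.3.3, and p values were adjusted by Benjamini-Hochberg over all genes tested. Alternatives were median-of-ratios, TMM, upper-quartile and total-count scaling (with and without mitochondrial genes), edgeR 4.0.16, DESeq2 1.42.0, voom, no minimum, a minimum of 10, pseudocounts of 0.5 and 5, removal of the length trend, equal depth and leaving out each library. Chain ratios used exact permutation tests in SciPy 1.17.1 with Python 3.11.15. Lengths and positions come from GENCODE M21, found for 18766 of 18770 genes. Values in every library are given for members that passed, members whose groups do not overlap and the 2 members of each class highest per kilobase, and for the pathway genes named among those that passed. Pathway genes were also named by role. Chi-squared per degree of freedom between replicates was 14.7 to 74.2, so spread between mice exceeded counting error. No paired analysis was possible because the titles of the VC and AP samples share no number. The members and gene lists were chosen with earlier results of these data known.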

Additional observations from a re-analysis of the deposited data

Results flagged for a closer look

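Col18a1 in VC.1 was at 260.1 normalized counts, below the other 3 controls. On the log2(normalized count + 1) scale its gap to the nearest of them, as a part of the group's range, exceeded the 95% critical value of Dixon's test for 4 libraries. On that scale it was the only such value among 88 groups checked, the VC and AP libraries of the 36 genes tested and of the 8 chain ratios, and chance gives about 1 in 20. On the normalized-count scale its gap was 0.808 of the range, under the critical value, and 4 other groups of the 72 formed by the genes exceeded it.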

How the results depend on the processing

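Depth limits the 6 collagen genes below the count minimum and the members with few reads, such as Col9a2 and Col6a5. Each of 46 named genes was recomputed under 22 alternatives (21 for Col9a2), and 25 of the 46 kept their direction in all of them. The alternatives include total counts, which shifts the median of all genes by 0.84. Col27a1, Col4a3, Col7a1, Ddr2, Serpinh1 and P4ha2 changed direction under that setting alone. Of the values so obtained 881 kept their direction and their side of the threshold, 33 passed it newly, 35 no longer passed and 62 changed sign. Causes of the changes listed here were not tested, except that leaving out a library leaves fewer libraries. Under total counts the collagen genes higher in AP numbered 19, and with the length trend removed 0. The range without each library was 0 to 3. Collagen genes lower in AP numbered 1 by DESeq2 and 1 with the length trend removed, and 0 to 1 without each library. Under total counts the median log2 fold change was 1.02 for the collagen genes, 0.98 for fibrillar, 1.45 for basement membrane, 1.19 for microfibrillar, 0.88 for FACIT and 0.98 for other collagens. For the pathway lists it was 0.84 (modification), 0.87 (folding), 1.41 (processing), 0.96 (lysyl oxidases), 0.77 (fibril-associated), 0.75 (receptors), 1.11 (breakdown), 1.40 (type IV partners) and 1.01 for all lists. With the length trend removed the medians were -0.14 for the collagen genes, -0.29 for fibrillar, 0.21 for basement membrane, -0.15 for microfibrillar, -0.23 for FACIT, -0.13 for other collagens, -0.06 for folding, -0.11 for lysyl oxidases, 0.13 for processing and 0.13 for type IV partners. The breakdown median was 0.062 by edgeR and 0.069 by DESeq2. Without each library the medians ranged over 0.27 to 0.82 (basement membrane), -0.21 to 0.55 (receptors) and 0.13 to 0.66 (breakdown). Pathway genes higher in AP numbered 56 under total counts, 11 by DESeq2, 2 with the length trend removed and 2 to 7 without each library. Those lower numbered 0 under total counts, 4 by DESeq2, 3 by the study's criteria and 1 to 4 without each library. Signs of single genes changed as follows (log2 fold changes). With the length trend removed they were -0.076 for Col5a1, -0.28 for Col4a4, -0.15 for Col6a1, -0.18 for Col6a3, -0.083 for Col16a1, -0.021 for Col15a1, -0.11 for Lox, 0.0061 for Sparc, -0.050 for Dcn and 0.065 for Lum. Under total counts they were 0.41 for Col27a1, 0.33 for Col4a3, 0.84 for Col6a2, 0.86 for Col14a1, 0.019 for Col7a1, 0.020 for Ddr2, 0.52 for Serpinh1, 0.40 for P4ha2, 0.82 for Loxl2, 0.79 for Bmp1, 0.75 for Itga11, 0.76 for Sparc and 0.84 for Lum. With upper-quartile factors it was -0.039 for Col6a1. By edgeR it was -0.014 for Col6a1. By DESeq2 they were -0.0051 for Col6a1 and 0.0048 for Col14a1. By voom it was -0.00064 for Col6a1. Under total counts without mitochondrial genes they were 0.0098 for Col6a2, 0.029 for Col14a1 and 0.012 for Lum. Without each library the ranges were -0.010 to 0.10 (Col6a1 over Col6a2), -0.40 to 0.099 (Col4a1 over Col1a1), -0.0068 to 0.61 (Col4a4), -0.14 to 0.28 (Col6a1), -0.21 to 0.29 (Col6a2), -0.18 to 0.18 (Col14a1), -0.031 to 0.38 (Col16a1), -0.15 to 0.41 (Lox), -0.27 to 0.23 (Loxl2), -0.23 to 0.15 (Bmp1), -0.52 to 0.21 (Itga11), -0.31 to 0.13 (Sparc), -0.075 to 0.37 (Dcn) and -0.24 to 0.29 (Lum). Without AP.3, 209 genes in all were higher and 94 lower.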
